A study of Mus musculus with 6 samples.

Results

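The non-classical MHC class I genes described here are the 10 rows, of 23282 gene rows in the deposited count table, whose symbol is H2-T10, H2-T22, H2-T23, H2-T24, H2-Q4, H2-Q6, H2-Q7, H2-M3, Cd1d1 or Mr1. They were measured by RNA-seq in TC-1 cells, a mouse tumour line derived from lung cells of C57BL/6 mice by transformation with papillomavirus oncogenes and an activated ras gene. The untreated group (3 libraries) was cultured in serum-containing medium without cytokine, and the IFN-gamma group (3 libraries) was cultured in the same medium with murine recombinant interferon-gamma at 20 ng/ml for 72 h. All samples come from 1 cell line. The labels do not say whether replicates were cultured apart, and the p-values rest on a spread between libraries that may be technical only.

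Classical class I molecules present cytosolic peptides to CD8 T cells, whereas the non-classical and class I-like molecules have narrower ligands and, in many cases, other receptors. Most of them are displayed with the light chain beta2-microglobulin, as the classical heavy chains are. Interferon-gamma is known to raise classical class I genes through the factor IRF1 and the transactivator NLRC5. The products described here fall into groups by ligand. H2-T23 encodes Qa-1, which shows signal peptides of other class I chains to the CD94/NKG2 receptors of NK cells and T cells. H2-T22 and H2-T10 are recognised by some gamma-delta T cell receptors without a peptide. H2-Q6 and H2-Q7 encode Qa-2, an MHC molecule anchored by glycolipid. H2-M3 presents N-formylated peptides of bacteria and mitochondria. CD1d presents lipids to NKT cells, and MR1 presents vitamin B metabolites to MAIT cells.

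Total counts ran from 7302687 to 10861336 per library. Levels are given as CPM, counts divided by the library's total and scaled to 1000000. Changes are log2 fold changes ± SE (IFN-gamma over untreated) from edgeR's quasi-likelihood test over 12191 genes, with adjusted p-values by the Benjamini-Hochberg method over all of them. Markers of T and NK cells (11 rows, 5 of them at 0 in all libraries, among them Cd3g, Klrc1 and Ncr1) summed to between 0.108 and 0.428 CPM in untreated and between 0.217 and 0.368 CPM in IFN-gamma libraries. Myeloid markers (9 rows) summed to 6.85 to 8.87 and 9.11 to 13.8 CPM, and 8 of them averaged under 1 CPM, the exception being Cd68, which rose by 0.73 ± 0.23 (adjusted p = 0.023). The labels call the line a lung adenocarcinoma line, but of 9 lung epithelial markers 7 averaged under 1 CPM, with Epcam, Nkx2-1, Sftpc and Cdh1 among them. The 7 mesenchymal markers summed to 2350 to 2490 CPM in untreated and 2010 to 2080 CPM in IFN-gamma libraries. Most of this sum was Col1a2 (1740 to 1860 CPM in untreated and 1550 to 1640 CPM in IFN-gamma libraries), and Lum averaged under 1 CPM. Of the 6 mesenchymal markers tested 4 fell, Col3a1 (-1.83 ± 0.08), Thy1 (-0.93 ± 0.15), Col1a1 (-0.47 ± 0.08) and Pdgfra (-0.19 ± 0.07), and Dcn rose (0.60 ± 0.08). Krt19, the most abundant of the epithelial markers, fell by 0.81 ± 0.20 (adjusted p = 0.003). The part of these marker shifts in the results was not tested.

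Treated cells held more transcript of nearly all of these genes. Of the 10 genes, 8 were called higher, 1 was tested and not called (Cd1d1), and 1 had too few counts to be tested (H2-Q6). H2-T10, H2-T22, H2-T23, H2-T24, H2-Q4, H2-Q7, H2-M3 and Mr1 were the higher ones and 0 were called lower, against 9.88% of all tested genes called higher and 7.56% called lower. The median log2 fold change of the 9 tested genes was 1.85, and that of all tested genes was -0.01. In 9 of the 10 the groups did not overlap, against 12.9% of all tested genes with every IFN-gamma library above every untreated one. H2-Q7 reached the count filter of 1.08 CPM through the IFN-gamma libraries alone (0 untreated libraries and 3 treated ones). Its presence among the tested genes is therefore not independent of its change. The same holds for its part in the 8 calls and in the median of 1.85. H2-Q6 was not tested. No gene of the 10 was lower at an unadjusted p under 0.05 either, and DESeq2 and limma likewise called 8 higher and 0 lower. In bulk cultures, more cells expressing a gene and more transcript per cell cannot be told apart.

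**Figure D1:**
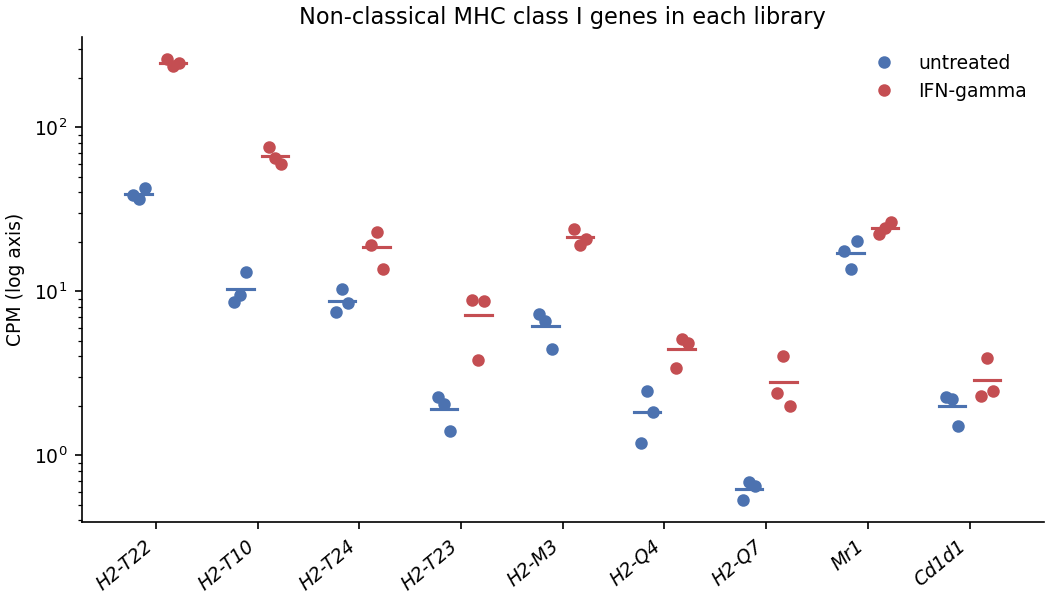
CPM of the 9 tested genes in each library on a log axis, with untreated libraries in blue, IFN-gamma libraries in red and group means as lines. H2-T22 rises from about 39.2 to 248 CPM, H2-T10 from 8.56 to 13 CPM up to 59.4 to 75.2 CPM, and the groups of Cd1d1 lie close together.

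Promoter sequences are shown because the genes differ in which interferon-type elements they carry near the start of transcription. The reference holds a promoter for 7 of the 10 genes (RefSeq, GRCm38.p6), namely H2-T22, H2-T23, H2-Q4, H2-Q6, H2-Q7, H2-M3 and Mr1. The 250 bases before the start are printed for H2-T22, chr17:36042743-36042992 (- strand), the gene with the highest level, for H2-T23, chr17:36032702-36032951 (- strand), for H2-M3, chr17:37269984-37270233 (+ strand), and for Mr1, chr1:155146815-155147064 (- strand), which changed least among the genes called. Each is read 5′ to 3′ on the gene's own strand. Capitals mark matches on either strand to GAAA, any 2 bases, GAAA (the interferon-stimulated response element type), to TTCNNNGAA (the gamma-activated site), to GGGA, any base, T, any base, CCC (the kappaB type of the class I enhancer) or to AAGTGAAA. The last was chosen after the promoters had been read, and it lies inside the response element match of H2-T22.
H2-T22: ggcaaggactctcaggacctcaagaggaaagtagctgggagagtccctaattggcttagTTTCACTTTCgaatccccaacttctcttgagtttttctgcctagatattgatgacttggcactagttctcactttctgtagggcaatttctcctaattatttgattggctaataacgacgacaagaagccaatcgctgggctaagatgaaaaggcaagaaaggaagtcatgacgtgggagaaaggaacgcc
H2-T23: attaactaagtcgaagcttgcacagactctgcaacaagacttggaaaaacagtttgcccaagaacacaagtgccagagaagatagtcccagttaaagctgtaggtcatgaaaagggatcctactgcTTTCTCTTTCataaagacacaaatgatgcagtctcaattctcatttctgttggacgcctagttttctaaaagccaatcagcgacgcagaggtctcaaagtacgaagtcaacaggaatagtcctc
H2-M3: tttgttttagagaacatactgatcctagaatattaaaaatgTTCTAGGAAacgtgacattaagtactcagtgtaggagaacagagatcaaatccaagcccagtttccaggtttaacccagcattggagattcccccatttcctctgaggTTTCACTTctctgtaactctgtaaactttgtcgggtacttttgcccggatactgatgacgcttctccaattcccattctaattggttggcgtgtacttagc
Mr1: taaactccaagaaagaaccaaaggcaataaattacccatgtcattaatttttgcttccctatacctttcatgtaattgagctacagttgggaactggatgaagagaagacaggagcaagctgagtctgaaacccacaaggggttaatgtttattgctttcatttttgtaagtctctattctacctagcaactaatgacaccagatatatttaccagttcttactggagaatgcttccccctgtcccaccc

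H2-T22 and H2-T23 each held 1 response element match, 191 and 124 bases before the start, a pattern found in 3.45% of 32544 RefSeq mouse promoters of the same length (250 bases before to 50 after the start). H2-M3 held the only TTCNNNGAA match among the 7, 209 bases before the start (8.33% of all promoters). H2-Q4, H2-Q6 and H2-Q7 held the kappaB type (1.1% of all promoters), as did H2-K1 and H2-D1. The Y box letters CCAAT were in 6 of the 7 (37.4% of all promoters), and TGACG, as in the X2 box, was in 4, namely H2-T22, H2-Q4, H2-Q7 and H2-M3 (20.9% of all promoters). None of these letters was found in the Mr1 window.

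AAGTGAAA was present in 5 of the 7 promoters and in 1.61% of all promoters. Since it was chosen after these promoters had been read, the difference between the shares is no test. The sites are set side by side with those of the classical genes H2-K1 and H2-D1 because the bases around some of them are shared too. The windows are H2-T22 chr17:36042915-36042944 (- strand), H2-M3 chr17:37270122-37270151 (+ strand), H2-Q4 chr17:35379453-35379482 (+ strand), H2-Q6 chr17:35424687-35424716 (+ strand), H2-Q7 chr17:35439031-35439060 (+ strand), H2-K1 chr17:34000419-34000448 (- strand) and H2-D1 chr17:35262933-35262962 (+ strand). Capitals mark the match, which reads as TTTCACTT on the gene's strand.
H2-T22: aattggcttagTTTCACTTtcgaatcccca
H2-M3: ttcctctgaggTTTCACTTctctgtaactc
H2-Q4: catctccccagTTTCACTTctgctcctaac
H2-Q6: catctccccagTTTCACTTctgctcctaac
H2-Q7: catctccccagTTTCACTTctgctcctaac
H2-K1: catctccacagTTTCACTTctgcacctaac
H2-D1: catctcctcagTTTCACTTctgcacctaac

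The windows of H2-Q4, H2-Q6 and H2-Q7 are the same run of letters. Of its 30 bases, the H2-K1 and H2-D1 windows each have the same letter at 28 and the H2-M3 and H2-T22 windows each at 15, the match included. Neither this match nor a response element match is in the printed Mr1 window. A match describes the sequence and not a bound site. Of the genes with AAGTGAAA, H2-T22 rose by 2.70, H2-Q7 by 2.20, H2-M3 by 1.85 and H2-Q4 by 1.34, and H2-Q6 was not tested. Of those without it, H2-T23 rose by 1.94 and Mr1 by 0.54. Whether the matches bear on the changes was not tested.

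The gamma-delta T cell ligands H2-T22 and H2-T10 changed most. H2-T22 had 38.5, 36.3 and 42.7 CPM in untreated replicates 1, 2 and 3 and 261, 236 and 246 CPM in IFN-gamma replicates 1, 2 and 3. Every treated library stood far above every untreated one, and the change was 2.70 ± 0.08 (adjusted p = 2.4e-28), a 6.5-fold difference. H2-T10 had 8.56, 9.45 and 13 CPM in untreated and 75.2, 65.1 and 59.4 CPM in IFN-gamma libraries, a change of 2.73 ± 0.14 (adjusted p = 6.9e-20). By log2 fold change H2-T10 and H2-T22 ranked 126 and 127 among the 12191 genes. RefSeq lists H2-T10 as a transcribed pseudogene, whereas H2-T22 is protein-coding.

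H2-T10 and H2-T22 transcripts were identical at 96.9% of 1481 aligned bases, so the division of reads between their rows is uncertain. Of the 50-base windows of the H2-T22 transcript 37.9% also occurred in H2-T10 transcripts, and 55.3% occurred in no other gene's transcripts of GENCODE M21. H2-T10 counts amounted to 22.2, 26.0 and 30.4 per 100 H2-T22 counts in untreated and 28.8, 27.6 and 24.1 in IFN-gamma libraries, which overlap. With the counts of both rows summed the change was 2.71 ± 0.08 (adjusted p = 8.4e-29). A further row, H2-T9, held 93.2 to 94.7 counts per 100 H2-T22 counts in each of the 6 libraries, rose by 2.70 ± 0.08 (adjusted p = 4.1e-28), and has no gene entry under that symbol in the RefSeq table. Whether the same reads were counted on both rows was not tested, so the H2-T9 row cannot be read as the change of a separate gene. It is in no sum given here. The antisense gene A930015D03Rik shares 1003 exon bases with H2-T22 on the opposite strand. Its row held 11, 15 and 4 counts in untreated and 23, 45 and 26 in IFN-gamma libraries, against 265 to 2837 counts of H2-T22.

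The row of H2-T23, the Qa-1 gene, held few counts. It had 21, 15 and 13 counts (2.25, 2.05 and 1.41 CPM) in untreated and 96, 35 and 74 counts (8.84, 3.80 and 8.69 CPM) in IFN-gamma libraries. The groups did not overlap, although IFN-gamma replicate 2 lay well below the other treated libraries, and the gene rose by 1.94 ± 0.35 (adjusted p = 5.5e-05). Without that library the change was 2.24 (adjusted p = 7.5e-07), the largest of the fits that dropped 1 library. These ran from 1.74 to 2.24, with adjusted p up to 0.0027. Of the 50-base windows of its transcript 71.2% occurred in no other gene's transcripts, and 49.4% of those in the last 300 bases. How reads were divided between H2-T23 and related rows is therefore uncertain, and so is its level.

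H2-T24, another gene of the H2-T region, had 70, 75 and 78 counts in untreated and 206, 213 and 116 counts in IFN-gamma libraries, or 8.73 ± 1.42 and 18.6 ± 4.77 CPM (SD, n = 3). Its treated libraries were spread more widely than its untreated ones but did not overlap with them, and it rose by 1.15 ± 0.19 (adjusted p = 2e-05). Nearly all of its windows were its own (96.8%). H2-M3, which presents N-formylated peptides, had 7.27, 6.57 and 4.44 CPM in untreated and 23.9, 19.2 and 20.8 CPM in IFN-gamma libraries. The treated libraries lay close together and well above the untreated ones, and the change was 1.85 ± 0.19 (adjusted p = 4.6e-10). Its transcript shared almost no window with other genes (99.4% its own).

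The Q-region genes were near the lower limit of the counts. H2-Q4 had 11, 18 and 17 counts in untreated and 37, 47 and 41 in IFN-gamma libraries and rose by 1.34 ± 0.40 (adjusted p = 0.014). With untreated replicate 1 left out the call did not hold (1.10, adjusted p = 0.077), nor with IFN-gamma replicate 2 left out (1.21, adjusted p = 0.073). H2-Q7 had 5, 5 and 6 counts in untreated and 26, 37 and 17 in IFN-gamma libraries, a change of 2.20 ± 0.54 (adjusted p = 0.0027) with a wide 95% interval of 1.10 to 3.30. With IFN-gamma replicate 2 left out it was 1.84 and only just passed (adjusted p = 0.046). H2-Q6 had 0 counts in 5 libraries and 2 in IFN-gamma replicate 1, at or under the floor of 3 counts in both groups, so no fold is given.

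Most Qa-2 counts stood on another row. Qa-2 is encoded by H2-Q6, H2-Q7, H2-Q8 and H2-Q9, and H2-Q9 held 98.4% to 99.2% of the counts of these rows in every library, with 751, 633 and 791 counts in untreated and 3401, 2762 and 2729 in IFN-gamma libraries. H2-Q9 rose by 1.93 ± 0.07 (adjusted p = 1.6e-25), from a mean of 84.2 to 311 CPM. Summed over the 4 rows, Qa-2 genes had 81.0, 87.5 and 86.2 CPM in untreated and 316, 305 and 323 CPM in IFN-gamma libraries, and the sum rose by 1.93 ± 0.07 (adjusted p = 1.3e-25). This sum was chosen after the counts had been seen. The levels of H2-Q6 and H2-Q7 alone are therefore not levels of Qa-2 transcript, and how reads were divided between these close relatives is uncertain. GENCODE M21 transcripts did not include H2-Q8 and H2-Q9, so the shares of unique windows of H2-Q6 (68.0%) and H2-Q7 (65.1%) do not count what they share with those genes.

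Mr1 and Cd1d1, which lie outside the MHC, had the smallest fold changes of the 9 tested genes. Mr1 had 17.6, 13.6 and 20.1 CPM in untreated and 22.3, 24.2 and 26.4 CPM in IFN-gamma libraries. The groups were adjacent without overlapping, and Mr1 rose by 0.54 ± 0.15 (adjusted p = 0.0096), a 1.45-fold difference. Without untreated replicate 2, its lowest library, the change was 0.41 and the call was lost (adjusted p = 0.087). All 50-base windows of the Mr1 transcript were its own. Cd1d1 had 21, 16 and 14 counts (2.25, 2.19 and 1.51 CPM) in untreated and 25, 36 and 21 counts (2.30, 3.91 and 2.47 CPM) in IFN-gamma libraries. Its lowest treated library stood just above its highest untreated one, and its change of 0.59 ± 0.43 did not pass (adjusted p = 0.40), with a 95% interval of -0.28 to 1.45. That interval holds both a fall and a rise, so these counts do not determine whether Cd1d1 changed. Cd1d2, its close relative, which shares 25.8% of the Cd1d1 windows, had 0 counts in all 6 libraries.

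**Figure D2:**
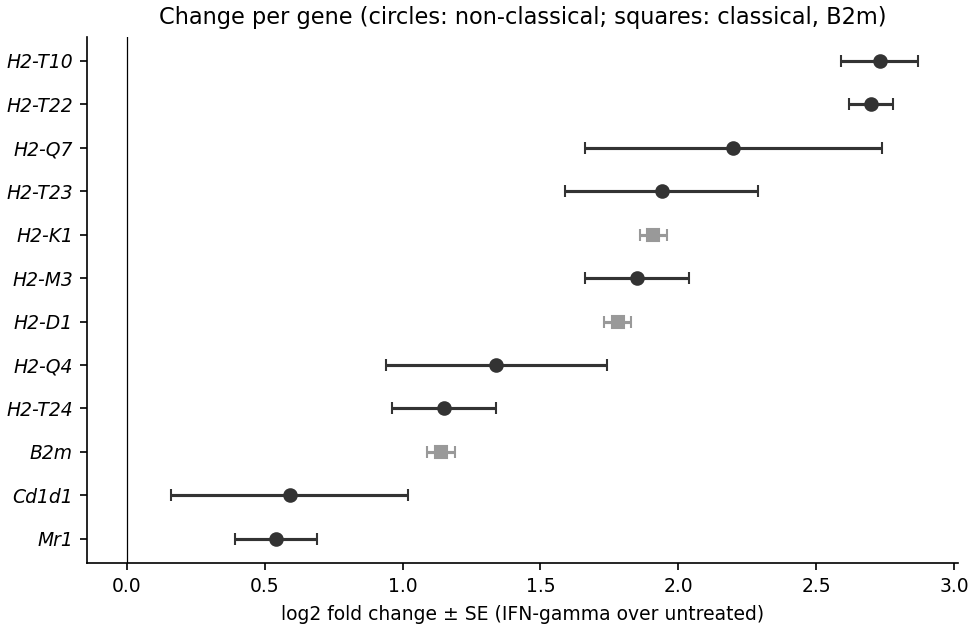
Log2 fold change ± SE (IFN-gamma over untreated) of the 9 tested non-classical genes (circles) and of H2-K1, H2-D1 and B2m (squares). H2-T10 (2.73) and H2-T22 (2.70) lie to the right of H2-K1 (1.91) and H2-D1 (1.78), and Mr1 (0.54) and Cd1d1 (0.59) lie to the left of B2m (1.14).

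Levels between genes were compared per kilobase of the longest coding transcript, which applies if whole transcripts were sequenced. If the kit that reads 3' ends gave these counts, CPM without a length correction is the fitting scale. In untreated libraries H2-T22 was highest, at 20.6 to 24.2 CPM per kb, and was followed by H2-T10 (5.78 to 8.78) and Mr1 (5.41 to 8), whose ranges overlap. H2-M3 (3.09 to 5.06 CPM per kb) and H2-T24 (3.43 to 4.72) also overlapped, as did H2-T23, H2-Q4 and Cd1d1 below them (0.658 to 1.53 CPM per kb over the 3 genes). H2-Q7 (0.351 to 0.450 CPM per kb) lay under those, and H2-Q6 was at 0. In IFN-gamma libraries H2-T22 (134 to 148 CPM per kb), H2-T10 (40.1 to 50.8) and H2-M3 (13.4 to 16.6) stood apart from each other on this scale. Mr1 (mean 9.67 CPM per kb) then overlapped with H2-T24 (mean 8.51), H2-T23 (2.58 to 6.01) with H2-Q4 (1.90 to 2.85), and H2-Q4 with H2-Q7 (1.31 to 2.64) and Cd1d1 (1.18 to 2.01). In CPM without the length correction the order differed. Untreated Mr1 (13.6 to 20.1 CPM) then lay wholly above H2-T10 (8.56 to 13 CPM) and under H2-T22 (36.3 to 42.7 CPM). In IFN-gamma libraries Mr1 (22.3 to 26.4 CPM) overlapped with H2-M3 (19.2 to 23.9 CPM) and had the higher mean, 24.3 against 21.3 CPM.

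The pool of these transcripts grew and its division shifted. Summed over the 10 genes there were 85.7, 83.5 and 94.1 CPM in untreated and 419, 384 and 385 CPM in IFN-gamma libraries. H2-T22 supplied 43.4% to 45.4% of the summed counts in untreated and 61.4% to 64.1% in IFN-gamma libraries. H2-T10 went from 9.99% to 13.8% up to 15.5% to 18.0%. Mr1 held 16.2% to 21.4% in untreated and 5.32% to 6.87% in IFN-gamma libraries, and H2-T24 8.74% to 12.3% and 3.54% to 6.02%. Of the counts of these 10 genes, H2-K1 and H2-D1 together, the 10 held 7.14%, 7.42% and 7.71% in untreated and 9.51%, 9.53% and 9.03% in IFN-gamma libraries. These shares describe the rows as counted and were not tested. They leave out H2-Q9, which alone had 751, 633 and 791 counts in untreated and 3401, 2762 and 2729 in IFN-gamma libraries. The 10 genes together had 801, 610 and 870 counts in untreated and 4548, 3537 and 3274 in IFN-gamma libraries. With H2-Q9 included the shares would differ.

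**Figure D3:**
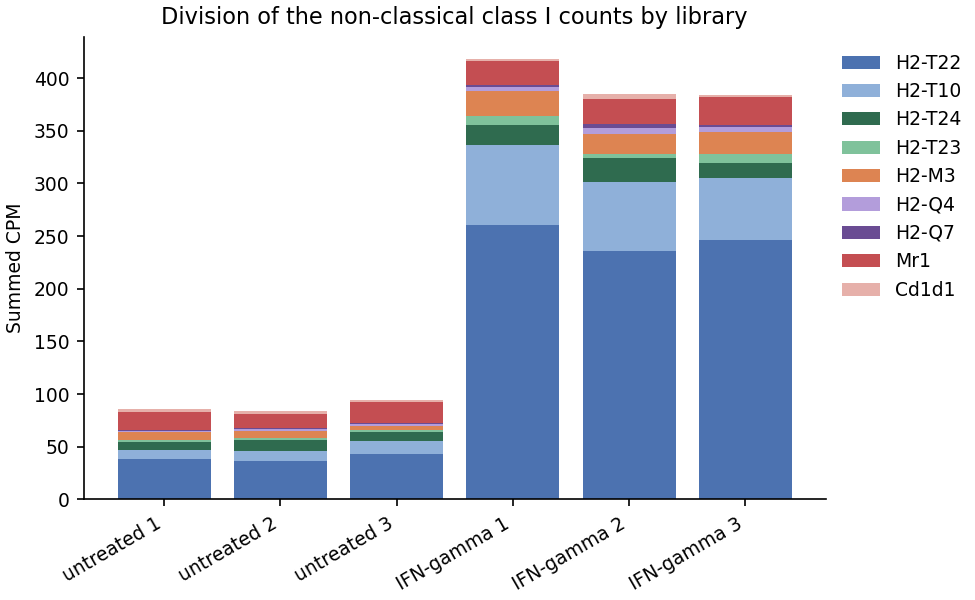
Summed CPM of the 9 tested genes in each library, stacked by gene. The rows of H2-Q9 and H2-T9 are not in the bars. The bars reach 83.5 to 94.1 CPM in untreated and 384 to 419 CPM in IFN-gamma libraries, and H2-T22 fills 61.4% to 64.1% of the treated ones.

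The genes were then set against the classical heavy chain genes within each library, which needs no scaling factor. H2-K1 rose by 1.91 ± 0.05 (adjusted p = 8.6e-29) and H2-D1 by 1.78 ± 0.05 (adjusted p = 1.4e-27), to 2070 ± 66.7 and 1770 ± 110 CPM (SD, n = 3). Per 1000 counts of H2-K1 and H2-D1 there were 34.5 to 37.9 counts of H2-T22 in untreated and 63.6 to 65.6 in IFN-gamma libraries. H2-T10 went from 7.68 to 11.5 up to 15.3 to 18.9 per 1000. On the log2 scale the ratio was higher by 0.85 for H2-T22 and by 0.90 for H2-T10 in treated libraries, with no overlap between groups. For Mr1 the ratio was lower, at 13 to 17.9 per 1000 in untreated and 5.59 to 6.82 in IFN-gamma libraries (log2 difference -1.29). For Cd1d1 it was 1.34 to 2.10 and 0.578 to 1.07 (log2 difference -1.28), and for H2-T24 6.72 to 9.85 and 3.52 to 6.35 (log2 difference -0.74). Each of these 5 genes gave p = 0.10 in the exact two-sided permutation test, the smallest p that 3 against 3 libraries allow, and an adjusted p of 0.18 over the 9 genes compared, so none could pass a threshold of 0.05. Of all 12191 tested genes 96.1% had a lower ratio and 1.3% a higher one without overlap, so the lower ratios of Mr1, Cd1d1 and H2-T24 are what nearly every gene shows. The groups overlapped for H2-T23 (0.02, exact p = 1), H2-M3 (0.02, exact p = 1), H2-Q4 (-0.48, exact p = 0.40) and H2-Q7 (0.30, exact p = 0.60). Against B2m, which rose by 1.14 ± 0.05, H2-T22 (1.57) and H2-T10 (1.61) were again higher without overlap and Mr1 lower (-0.57). H2-Q7 (1.02) and H2-M3 (0.74) were then higher without overlap too, while the groups overlapped for H2-T23 (0.74), H2-T24 (-0.03), H2-Q4 (0.23) and Cd1d1 (-0.57). Of all tested genes 1.76% had a higher and 91.1% a lower ratio to B2m without overlap.

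**Figure D4:**
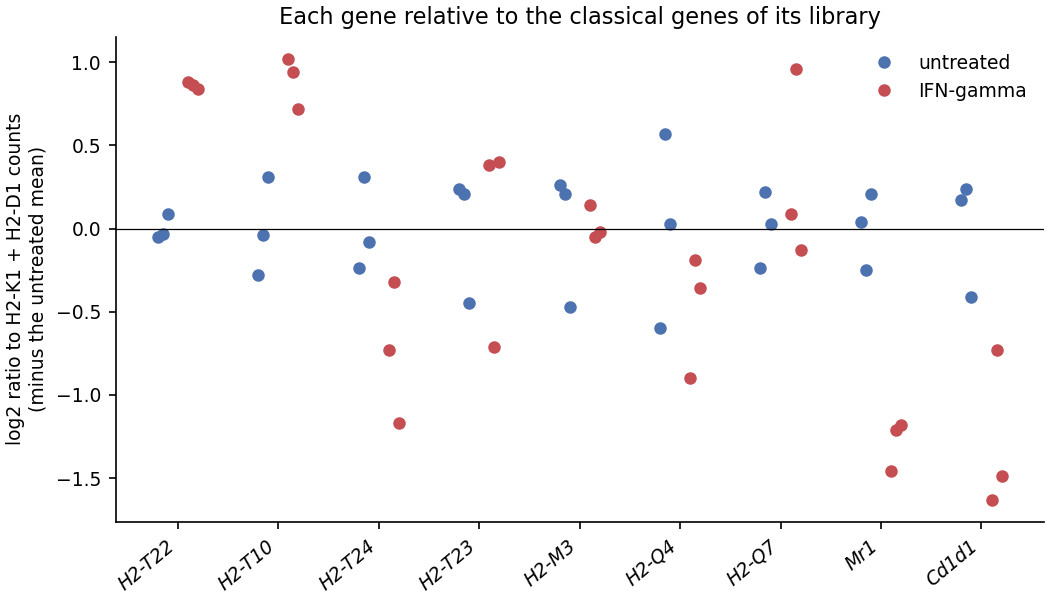
Log2 ratio of each gene's count to the summed count of H2-K1 and H2-D1 in the same library, shifted so that the mean of the 3 untreated libraries (blue) is 0. IFN-gamma libraries (red) lie above the untreated ones for H2-T22 and H2-T10. They lie below them for H2-T24, Mr1 and Cd1d1, as for 96.1% of all tested genes. For the other genes the groups overlap.

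The machinery that these molecules use was read from lists chosen with earlier results of these data known. Of 12 tested genes of classical class I and its transcriptional control, 7 rose and 1 fell, with a median of 0.86. The shares over all tested genes were 9.88% higher and 7.56% lower. The transcription factor gene Irf1 rose by 3.62 ± 0.07 (adjusted p = 7.5e-34), and Nlrc5, the class I transactivator, by 2.13 ± 0.11 (adjusted p = 1.1e-19). Rfx5, a subunit of the factor that binds the X box, rose by 0.58 ± 0.11 (adjusted p = 0.0002). Its partners Rfxap (-0.05 ± 0.18) and Rfxank (0.15 ± 0.19) did not pass, nor did the Y box factor genes Nfyb and Nfyc. Nfya was lower by -0.50 ± 0.17 (adjusted p = 0.034), which did not pass with DESeq2 (adjusted p = 0.0965), nor in the fits that dropped untreated replicate 1 or 2, or either of IFN-gamma replicates 1 and 2 (adjusted p = 0.0576 to 0.292).

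Of 8 peptide loading genes, which serve Qa-1, Qa-2 and H2-M3 as well as classical molecules, 6 rose and 0 fell, with a median of 2.14. Among all tested genes 9.88% were called higher and 7.56% lower. No peptide loading gene was lower at an unadjusted p under 0.05. Tapbp, which encodes tapasin, rose by 2.63 ± 0.07 (adjusted p = 1e-30), the peptide transporter gene Tap1 by 2.43 ± 0.07 (adjusted p = 1.1e-27) and the chaperone gene Calr by 0.39 ± 0.06 (adjusted p = 1.8e-06). The other 3 were Tap2, Tapbpl and Erap1 (2.09 to 2.59). Tap2, whose IFN-gamma replicate 2 held 1120 counts against 2346 and 2025 in the other treated libraries, did not pass when any untreated library or IFN-gamma replicate 1 was dropped (adjusted p = 0.062 to 0.0768).

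Of 13 lipid loading genes of CD1d, 4 were higher, 1 was lower and 8 were not called, with a median of 0.02. Over all tested genes, 9.88% were called higher and 7.56% lower. Npc2, a lysosomal lipid transfer protein, rose by 0.64 ± 0.05 (adjusted p = 5.3e-13) from 900 ± 35.1 to 1360 ± 71.3 CPM. Gla, an alpha-galactosidase that trims glycolipids, rose by 0.46 ± 0.09 (adjusted p = 9.4e-05). The protease gene Ctss had 1, 0 and 2 counts in untreated and 12, 18 and 14 in IFN-gamma libraries, and passed both the filter and the test (adjusted p = 0.0017) through the treated ones. Ap3m1, an adaptor subunit, was higher by 0.39 ± 0.13 (adjusted p = 0.028), which did not pass under 6 of the alternatives, namely upper-quartile or total-count scaling, DESeq2, and leaving out untreated replicate 1 or 2 or the third treated library (adjusted p = 0.0543 to 0.114). Gm2a, the GM2 activator, fell by 0.48 ± 0.14 (adjusted p = 0.010). With untreated replicate 1 dropped its log2 fold change was -0.44 and just missed the threshold (adjusted p = 0.0521).

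Other genes of the class I fold were largely silent. Of 28 listed, 27 had rows and 7 were tested, of which 4 were higher and 1 lower, with a median of 1.53. H2-T9, whose row may hold the reads of H2-T22, is 1 of the 4 and enters the median. Of all tested genes 9.88% were called higher and 7.56% lower. H2-Q5, H2-Q10 and Hfe passed the count filter only through their IFN-gamma libraries (2, 1 and 1 untreated libraries over it against 3 treated ones each), so the calls of H2-Q5 and Hfe and this median are not independent of their rise. Besides H2-T9 and H2-Q9, H2-Q5, a transcribed pseudogene in RefSeq, rose by 1.53 ± 0.41 (adjusted p = 0.0065). With IFN-gamma replicate 1 dropped its log2 fold change was 1.33 and did not pass (adjusted p = 0.073). Hfe, the hemochromatosis gene, was higher by 1.5 ± 0.53 (adjusted p = 0.043), which did not pass with DESeq2 (adjusted p = 0.0929), nor when untreated replicate 2 or 3 or any treated library was dropped (adjusted p = 0.0666 to 0.214). Fcgrt, the neonatal Fc receptor that carries IgG and albumin, fell by 0.59 ± 0.14 (adjusted p = 0.0013), from 33.3 ± 3.41 to 21.5 ± 2.86 CPM. Of 9 NKG2D ligands, which are class I-like stress proteins, 3 were tested. Of these 0 were called in either direction by edgeR, DESeq2 or limma, nor at an unadjusted p under 0.05. With 17.4% of all tested genes called in either direction, 0 of 3 does not set these ligands apart. Raet1e had -0.02 ± 0.14 at 22.9 ± 3.38 and 21.8 ± 0.869 CPM (adjusted p = 0.94), and Raet1b had -0.20 ± 0.19 (adjusted p = 0.54). The Raet1 genes are near-identical, so how reads were divided between their rows is uncertain.

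Likeness of pattern was measured as the root mean square difference of log2 CPM over the 6 libraries, each gene centred on its own mean, among other genes of at least 10 CPM. The nearest gene to H2-T22 was H2-T9 (0.008), to H2-T10 Tmem140 (0.108), to H2-M3 Ifih1 (0.089) and to H2-T23 Il6 (0.190). The H2-T9 row may hold the reads of H2-T22, which was not tested. The nearest to H2-T24 was Sdpr (0.204), to H2-Q4 Greb1l (0.215) and to H2-Q7 Daxx (0.260). Mr1 lay nearest to Smg8 (0.069) and Cd1d1 to Chpt1 (0.123). The measure describes these 6 libraries and is no test.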

How the data were processed

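Counts per gene and log2 values were deposited by the authors in 1 table of 6 TC-1 libraries. The counts deposited by the authors were raw whole numbers, and the log2 values deposited by the authors were normalized per the file headers. Per the submitters' processing notes, Bowtie2 and edgeR were used, and hg19, a human build, is named. Counting tool, annotation and strand setting are not given in the sources used here. Every sample carries the names of 2 library kits in the labels, one stranded and preceded by poly(A) selection, the other for 3' ends, and nothing states which gave the counts.

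The members and gene lists were chosen with earlier results of these data known. Samples were grouped by title. The test was edgeR 4.0.16 under R 4.3.3 on the counts (TMM, filterByExpr with a minimum count of 10, robust quasi-likelihood fit, threshold 0.05, no covariate), and the fit was tested on simulated data. The SE is the absolute log2 change over the root of F. DESeq2 1.42.0, limma 3.58.1 on the deposited log2 values, other scaling factors, no filter, a replicate block, summed rows and fits without each replicate were alternatives. CPM uses total counts without TMM. Libraries of a group differed by more than sampling noise (chi-square per gene of 4.57 to 11.7). Named genes were the 10 members, the nearest gene of each, the classical genes with Irf1 and Nlrc5, and from each list the 2 genes of smallest adjusted p, the most abundant one and the one moving furthest the other way. Others (such as Rfx5, Hfe and Tap2) were named after their values were seen. A further gene that the rule names is not reported here. Transcripts were taken from GENCODE M21 and promoters from RefSeq, in place of the protein comparison first planned. Coordinates belong to GRCm38.p6 and not to the counting.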

Additional observations from a re-analysis of the deposited data

How the results depend on the processing

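All 8 calls of the non-classical genes, and the missing call of Cd1d1, were unchanged under limma, DESeq2, other scaling factors and an unfiltered table. Without 1 library the calls numbered 7 to 8, since H2-Q4 (log2 fold change from 1.10 to 1.60) and Mr1 (from 0.41 to 0.66) each lost theirs at least once. Without IFN-gamma replicate 1, 2 of the other class I-like genes were higher (range 2 to 4). The 1 lower gene of the classical list became 0 with DESeq2, and its range without 1 library was 0 to 1, as for the 1 lower lipid loading gene.

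With B2m in place of H2-K1 and H2-D1, the log2 ratio differences were 1.61 for H2-T10, 1.57 for H2-T22, 0.74 for H2-T23 and H2-M3, -0.03 for H2-T24, 1.02 for H2-Q7 and -0.57 for Cd1d1 and Mr1, and that of H2-Q4 turned to 0.23. B2m rose less than the classical genes, which moves each ratio up. Without 1 library the ratio to the classical genes ranged from -0.20 to 0.39 for H2-T23, from -0.21 to 0.15 for H2-M3 and from -0.02 to 0.52 for H2-Q7, so these have no stable sign. It was -0.20 for H2-T23 without untreated replicate 3 and -0.16 without IFN-gamma replicate 1 or 3. For H2-M3 it was -0.21 without untreated replicate 3 and -0.04 without IFN-gamma replicate 1, and for H2-Q7 -0.02 without IFN-gamma replicate 2.

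No pairing of the samples by replicate number was visible, with correlations of same-numbered deviations of 0.003, 0.041 and -0.001. Those of differently numbered libraries ran from -0.028 to 0.028. With 3 libraries per group these values cannot show whether same-numbered cultures were handled together. With the replicate block 8 non-classical genes were higher and 0 lower, and 1252 and 974 of all genes, against 1204 and 922 without it. Counts under 100 in H2-T23, H2-Q4, H2-Q7 and Cd1d1 limit what those rows can show.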
